A study of Mus musculus with 12 samples.

Results

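Mitochondria carry their own ribosome, whose RNAs come from mitochondrial DNA while its proteins are encoded in the nucleus, made in the cytosol and imported. This ribosome, the mitoribosome, translates the few respiratory chain subunits that mitochondrial DNA encodes. About the tissue, the proximal tubule and the thick ascending limb of the kidney are rich in mitochondria, because their salt and solute transport runs on oxidative phosphorylation. The members described here are the nuclear genes named Mrpl, for proteins assigned to the large subunit, and Mrps, for the small subunit. They were chosen by name among protein-coding genes, with at least 10 estimated counts in 3 or more libraries. All 78 protein-coding genes of that name form passed, out of 55487 genes in the table and 19890 that entered the test, so none lay just outside the limit. Their estimated counts ran from 125 to 9164 in a library. The 6 processed pseudogenes with such names were left out, of which Mrpl23-ps1 had 1333 to 1822 counts and Mrpl48-ps 56.5 to 463, so reads of Mrpl23 and Mrpl48 may be shared with those copies.

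Whole kidneys of mice at postnatal day 15 were profiled by RNA sequencing in 4 groups of 3 libraries. The groups were Hoxb7-Cep120 knockouts, titled homo, with Cep120 controls titled het, and Hoxb7-Pkd1 knockouts, titled homo, with Pkd1 controls titled het. The controls' genotype label reads WT, so whether they carry 1 deleted allele is not settled by the labels. Cep120 encodes a centriole protein and Pkd1 the cilium-associated protein polycystin-1, and the series asks how cystic kidneys after loss of the one compare with those after loss of the other. Hoxb7, in the name of both lines, is active in the ureteric bud and the collecting ducts that grow from it, so most cells of a whole kidney lie outside the targeted lineage. The labels give neither alleles nor strain nor sex, and do not say that libraries of a group come from separate animals, so p-values measure the spread between these libraries. In whole tissue, fewer cells of a type and less RNA per cell cannot be told apart.

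Library totals ran from 23070736 to 31837973 counts. Mean Pkd1 levels were 17.2 CPM (counts relative to the library total, scaled between libraries) in Pkd1 controls and 28.8 in Pkd1 knockouts, and mean Cep120 levels were 16.2 CPM in Cep120 controls and 17.9 in Cep120 knockouts. These whole-tissue transcript levels therefore check no label. Proximal tubule markers, summed over 12 genes, were at 11398 to 19002 CPM in the 6 control libraries, and 2 skeletal muscle genes summed to at most 3.42 CPM in any library. The number of genes with a count split the libraries into 30321 to 32740 (Cep120 controls 1 and 2, all Cep120 knockouts and Pkd1 control 3) and 23544 to 25665 (the other libraries). Cep120 controls 1 and 2 were the most alike pair of libraries within a group (chi-squared of 5.58 per gene, against 27.2 to 70.7 for the other pairs) and were kept as 2 libraries. They differed by more than counting noise, which does not show that they come from separate animals. Xist RNA, which coats the inactive X chromosome, was below 1 CPM in all 3 Pkd1 knockouts and in Cep120 knockouts 1 and 2, and between 49.97 and 184 CPM elsewhere. In the Pkd1 line, sex as read from Xist and genotype cannot be told apart.

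Promoter stretches are shown first for 5 members, because some of these genes are known targets of the transcription factors NRF1, the ETS factor GABP and YY1, and because the members did not move alike. Each stretch is the 150 bases before the RefSeq start on build GRCm38.p6, with exact matches to 3 motifs in capitals: GCGCANGCG for NRF1, CCGGAAG for ETS factors and AAGATGGCG for YY1, on both strands. Matches of different motifs were counted separately even where they share bases. Mrpl42 and Mrps22 fell at least 2-fold in Pkd1 knockouts, Mrpl45 fell less, and Mrpl52 and Mrps9 did not pass the test.
Mrpl42, chr10:95501950-95502099, minus strand: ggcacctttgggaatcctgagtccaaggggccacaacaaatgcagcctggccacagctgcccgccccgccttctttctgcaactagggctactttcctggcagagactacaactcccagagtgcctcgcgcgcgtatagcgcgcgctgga
Mrps22, chr9:98601680-98601829, minus strand: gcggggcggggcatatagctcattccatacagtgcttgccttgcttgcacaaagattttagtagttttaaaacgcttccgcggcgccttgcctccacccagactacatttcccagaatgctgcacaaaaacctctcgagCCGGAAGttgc
Mrpl45, chr11:97315566-97315715, plus strand: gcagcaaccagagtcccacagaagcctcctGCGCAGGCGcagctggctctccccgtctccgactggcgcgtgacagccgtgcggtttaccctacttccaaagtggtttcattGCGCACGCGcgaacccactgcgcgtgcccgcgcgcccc
Mrpl52, chr14:54426759-54426908, plus strand: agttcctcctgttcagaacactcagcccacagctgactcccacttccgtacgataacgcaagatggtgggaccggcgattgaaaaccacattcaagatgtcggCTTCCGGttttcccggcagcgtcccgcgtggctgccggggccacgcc
Mrps9, chr1:42851083-42851232, plus strand: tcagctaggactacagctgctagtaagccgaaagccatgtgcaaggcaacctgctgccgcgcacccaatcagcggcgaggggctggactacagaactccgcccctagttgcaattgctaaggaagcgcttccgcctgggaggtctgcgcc

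The Mrpl45 stretch holds 2 NRF1 matches, the Mrps22 stretch 1 ETS match and the Mrpl52 stretch 1 ETS match on the opposite strand, while Mrpl42 and Mrps9 hold none. The 2 members with an ETS match changed by -1.004 on the log2 scale (Mrps22) and 0.14 (Mrpl52). RefSeq windows from 250 bases before to 50 after the start were matched for 69 of the 78 members. Any of the 3 motifs was present for 42 of these 69 members, 60.9%, against 29.3% of the 12190 tested protein-coding genes with a window. A gene counted when any of its windows held a match, and some genes had several windows, such as Mrpl48 with 4. ETS matches were in 37.7% of members and 17.3% of those genes, NRF1 matches in 23.2% and 13.2%, and YY1 matches in 11.6% and 2.99%. The median log2 fold change in Pkd1 knockouts was -0.44 for the 42 members with a match, of which 24 fell, and -0.55 for the 27 without, of which 18 fell. By motif, the medians with and without a match were -0.45 and -0.45 for ETS, -0.36 and -0.49 for NRF1, and -0.46 and -0.45 for YY1. The part of these motifs in the change was not tested.

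The members spanned a wide range of levels. On the deposited TPM scale, which is per transcript length and lets genes be compared, the median member had a mean of 99.0 over the 12 libraries, and 36 members reached 100. Mrpl42, a large-subunit protein with no bacterial counterpart, was highest at 493 TPM (range over libraries 239 to 671). Mrps21, a small-subunit protein of bacterial ancestry, followed at 467 (286 to 595), then Mrpl17 at 347 (312 to 393), Mrpl33 at 339 (263 to 422) and Mrpl52 at 293 (229 to 397). The libraries of these neighbours overlapped, so their order is not firm. At the low end stood Mrps30 at 2.80 TPM (1.89 to 3.62), Mrpl1 at 15.6, Mrps22 at 21.4, Mrps2 at 22.5 and Mrpl47 at 23.6. Mrps30 was below every other member in its mean by a wide margin, although its protein is a stoichiometric part of the large subunit despite its small-subunit name.

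In Pkd1 knockouts the mitoribosome genes were lower as a group. Of the 78 members, 47 fell and 0 rose at an adjusted p below 0.05 (edgeR quasi-likelihood test, Benjamini-Hochberg over all genes tested). Of all genes tested, 22.4% fell and 22.1% rose by the same rule. The fold change was below 0 for 72 members, against 52.2% of all genes, and its median was -0.45 on the log2 scale, against -0.04. The changes ran from -1.47 (Mrpl42) to 0.24 (Mrps9). In 50 members every Pkd1 knockout library lay below every Pkd1 control, as it did for 25.5% of all genes, and in none did every knockout lie above, as it did for 27.4%. Of the 47 members that fell, 44 had no overlap between the groups, the others being Mrpl55, Mrps27 and Mrpl20. Only 6 members fell at least 2-fold, 7.69% of the members against 13.2% of all genes, and the rest of the falls were smaller.

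**Figure D1:**
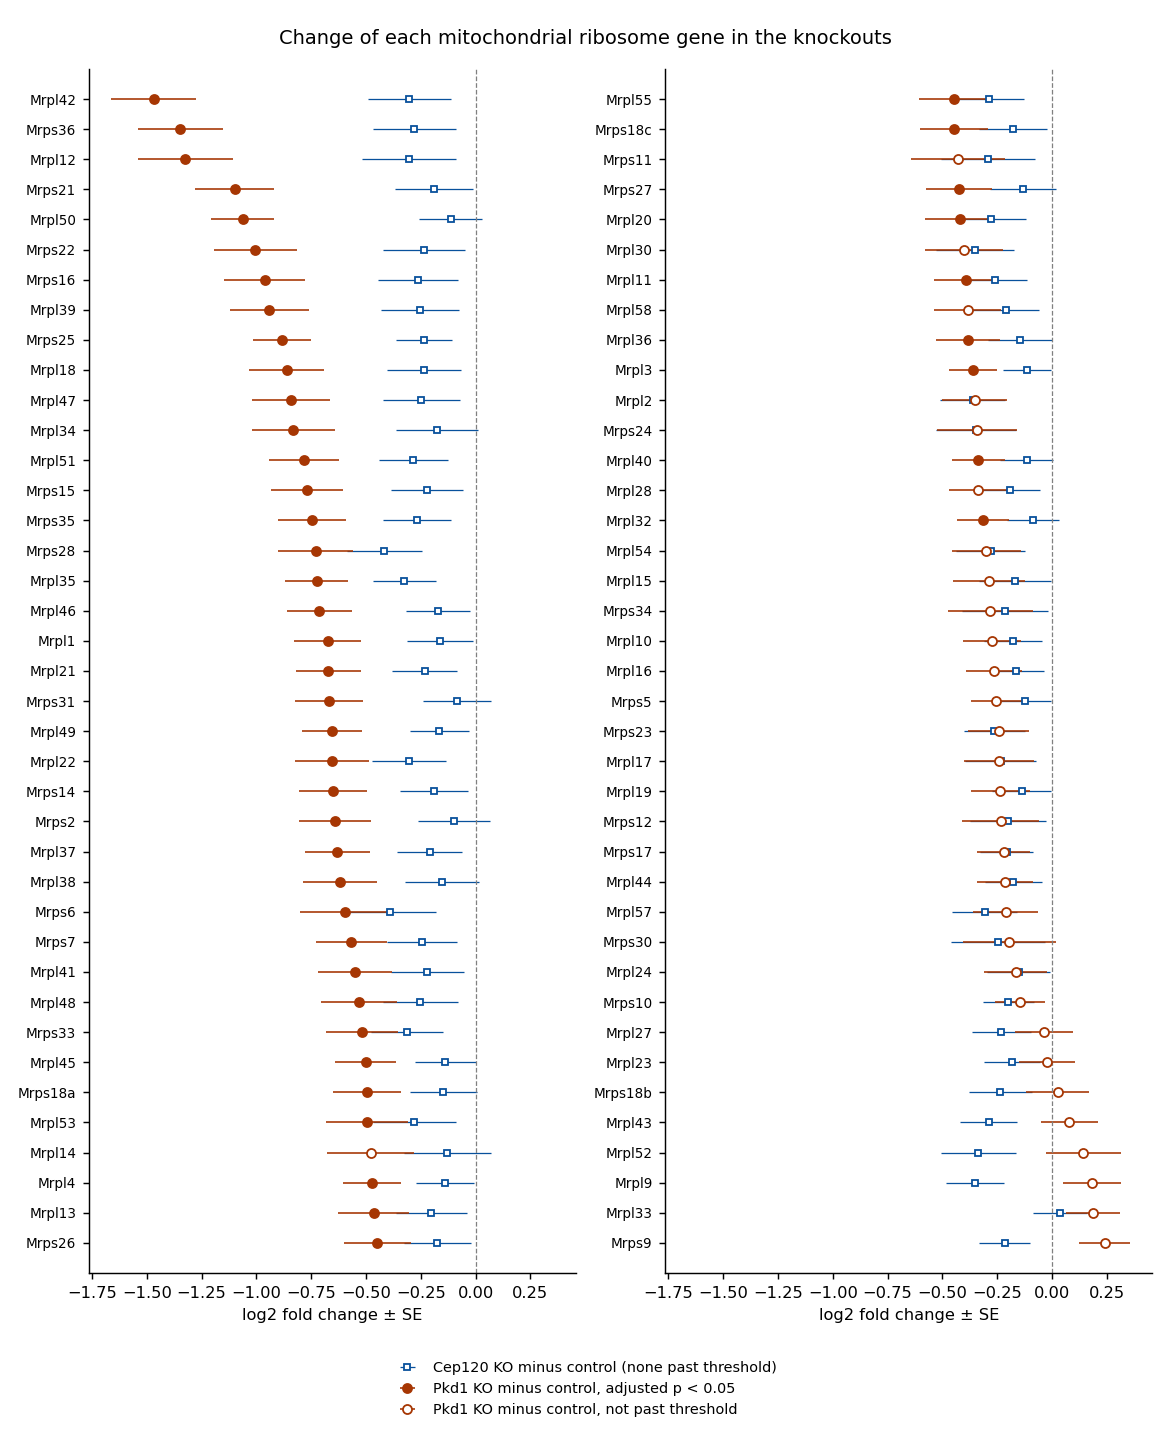
Log2 fold change (x axis, ± SE) of each of the 78 members, ordered by its change in Pkd1 knockouts; circles are Pkd1 knockout minus control, filled where the adjusted p was below 0.05, and squares are Cep120 knockout minus control. Circles run from -1.47 for Mrpl42 to 0.24 for Mrps9, while squares keep between -0.42 and 0.04.

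Mrpl42 showed the largest fall. It was at 292, 379.8 and 208 CPM in Pkd1 controls 1 to 3 and at 96.3, 113 and 109 in the knockouts (293 ± 85.9 and 106 ± 8.56, mean ± SD, n = 3), which gave a change of -1.47 ± 0.20 in log2 units (SE, edgeR, adjusted p = 7.4e-05). Even the lowest control lay above the highest knockout. Its leading transcript, Mrpl42-203, made up 96.1% of its estimated transcript counts in Pkd1 controls and 96.5% in knockouts, so the fall was in the leading form.

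Mrps36, named as a small-subunit protein, is now known as a subunit that binds the E3 component to the oxoglutarate dehydrogenase complex of the citric acid cycle, and is kept apart from both subunits here. Its levels were 119, 147 and 85.6 CPM in Pkd1 controls and 41.1, 45.5 and 51.5 in knockouts, a change of -1.35 ± 0.19 (adjusted p = 0.00014, edgeR). Control 3 was again the lowest control, and still above every knockout. Mrps36-ps1 and Mrps36-ps2 were assigned at most 57.4 estimated counts in any library. These counts do not show whether reads of those copies were placed on Mrps36.

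Mrpl12 encodes the stalk protein of the large subunit, which recruits translation factors. It stood at 298 (control 1), 369 and 199 CPM in Pkd1 controls and at 101, 130.02 and 115 in knockouts, a change of -1.33 ± 0.22 (adjusted p = 0.00035, edgeR). Slc25a10, the dicarboxylate carrier gene next to Mrpl12 in RefSeq, fell by 1.42 on the log2 scale, from 480.2 ± 40.6 to 179 ± 28.7 CPM.

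Mrps21 was at 160 (control 1), 214 and 139.7 CPM in Pkd1 controls and at 74.8, 80.4 and 84.4 in knockouts, a change of -1.10 ± 0.18. Mrpl50, a large-subunit protein without bacterial counterpart, was at 168, 189 and 124 CPM in controls and 68.5, 80.2 and 81.4 in knockouts, a change of -1.06 ± 0.15. Mrps22, a small-subunit protein specific to mitochondria, was at 26.2, 28.9 and 16.3 CPM in controls and 10.2, 13.1 and 12.2 in knockouts, a change of -1.004 ± 0.19. The groups did not overlap for any of these genes, and the narrowest gap was that of Mrps22, between control 3 and knockout 2. Mrps16, a small-subunit protein of bacterial ancestry, changed by -0.96 ± 0.19, from 94.2 ± 26.0 to 48.3 ± 2.48 CPM, and Mrpl39 by -0.94 ± 0.18, from 50.1 ± 13.6 to 26.1 ± 2.87 CPM.

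**Figure D2:**
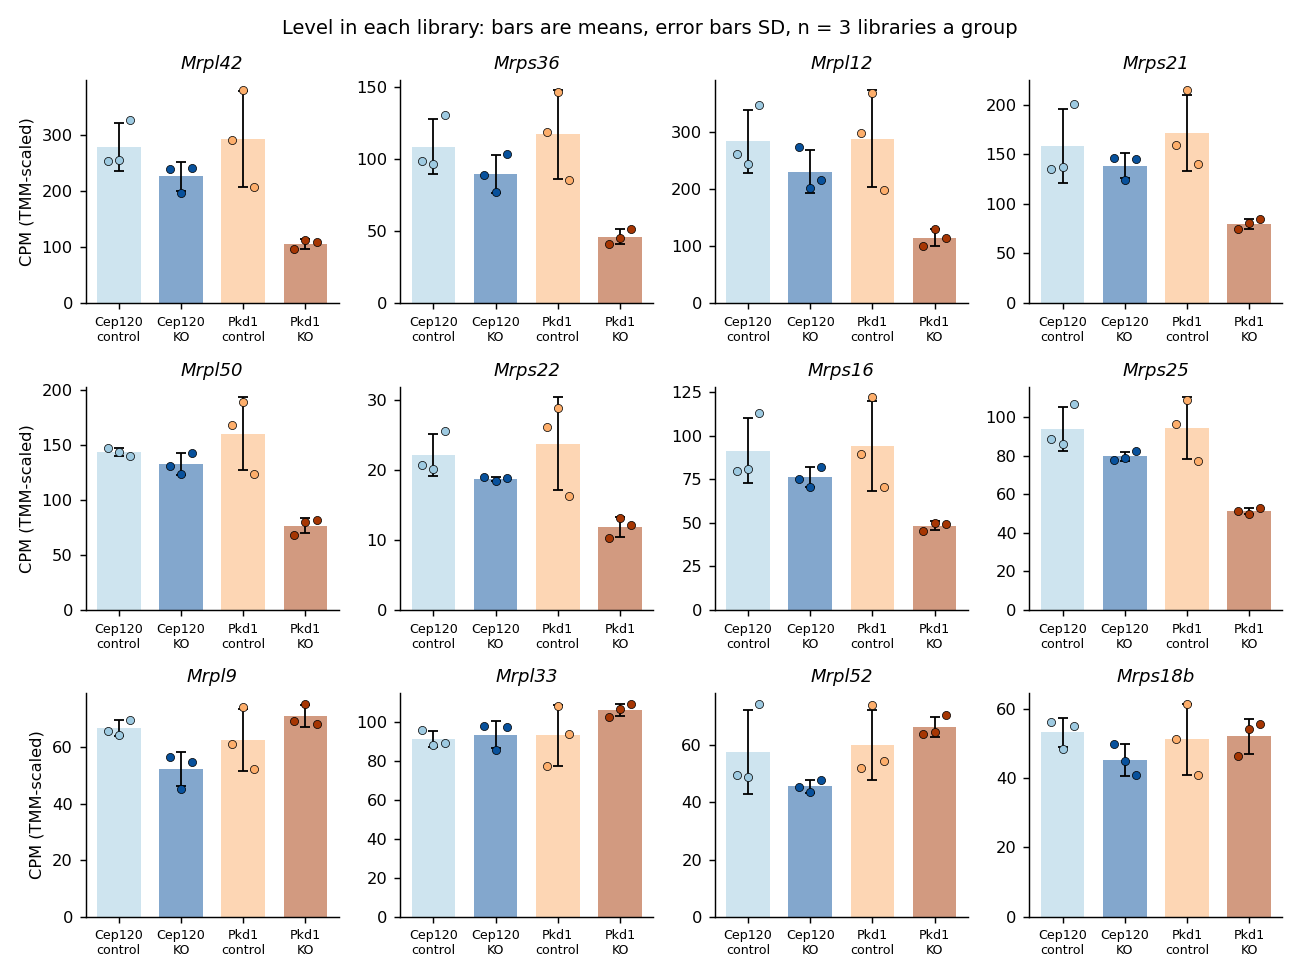
TMM-scaled CPM (y axis) of 12 members in the 4 groups; points are libraries in the order of their replicate numbers, bars are means and error bars SD (n = 3). For Mrpl42 to Mrps25 every Pkd1 knockout point lies below every Pkd1 control point, and for Mrpl9, Mrpl33, Mrpl52 and Mrps18b the groups overlap.

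Not all members fell. Mrps9 was at 62.3, 67.7 and 51.3 CPM in Pkd1 controls and 70.2, 78.8 and 65.1 in knockouts, a log2 fold change of 0.24 ± 0.12 that did not pass the test (adjusted p = 0.11, edgeR). Mrps9 is named here after its values were seen. Mrpl33 was at 77.4, 109 and 94.0 CPM in controls and 103, 107 and 109 in knockouts (0.19 ± 0.12), Mrpl9 had 62.4 ± 11.1 and 70.8 ± 3.87 CPM (0.18 ± 0.13) and Mrpl52 had 60.1 ± 12.2 and 66.3 ± 3.58 CPM (0.14 ± 0.17). In each of these genes at least 1 knockout library lay within the range of the controls. Mrpl17, among the 5 highest by TPM, changed by -0.24 ± 0.16 (adjusted p = 0.24), and Mrps30, the lowest, by -0.20 ± 0.21 (adjusted p = 0.47, both edgeR). Level and change were nearly unrelated across the 78 genes, which are not independent replicates (Pearson r of -0.09 between log2 TPM and log2 fold change, Spearman rho of -0.04, as a description). Mrps21 and Mrpl33 were both abundant, and Mrps22 and Mrps30 both scarce.

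**Figure D3:**
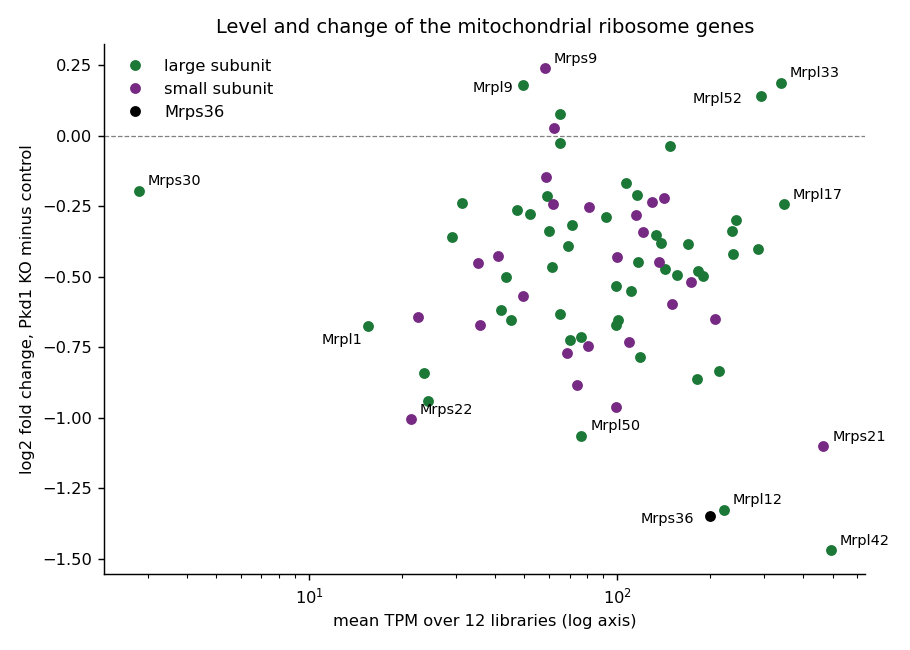
Mean TPM over 12 libraries (x axis, log scale) against log2 fold change in Pkd1 knockouts (y axis) for the 78 members, coloured by subunit with Mrps36 apart. Small-subunit members run from -1.10 to 0.24 and large-subunit members from -1.47 to 0.19, and the most abundant genes include both Mrpl42 at -1.47 and Mrpl33 at 0.19.

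Both subunits took part. Of 51 large-subunit genes, counting Mrps30 and Mrps18a, whose proteins sit in the large subunit, 30 fell (median -0.42), and of 26 small-subunit genes 16 fell (median -0.48). By the ancestry assigned here, 25 of 47 members listed with a bacterial homologue fell (median -0.40). So did 21 of 30 listed as specific to mitochondria (median -0.51). Mrpl55, which fell, was counted with the latter, and another assignment would change these counts. These class differences were not tested. The 3 Mrps18 paralogs, which derive from 1 bacterial protein, are a case of unlike values. Mrps18a went from 135 ± 27.9 to 95.9 ± 9.41 CPM (-0.50 ± 0.15, adjusted p = 0.0197) and Mrps18c from 62.1 ± 15.8 to 45.5 ± 1.44 (-0.45 ± 0.15, adjusted p = 0.032, edgeR), so both fell. Mrps18b had 51.1 ± 10.2 and 52.0 ± 4.98 CPM (0.03 ± 0.14, adjusted p = 0.90, edgeR), and the difference between paralogs was not tested.

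Of 13 members in which inherited mutations are known to cause mitochondrial disease, 9 fell (median -0.64): Mrpl12, Mrps22, Mrps16, Mrps25, Mrps28, Mrps14, Mrps2, Mrps7 and Mrpl3. The other 4, Mrps34, Mrps23, Mrpl44 and Mrpl24, lay between -0.28 and -0.17 without passing the test. Mrps28 had 69.4 ± 16.5 CPM in Pkd1 controls and 41.8 ± 5.58 in knockouts (-0.73 ± 0.17), and Mrps25 had 94.5 ± 16.04 and 51.2 ± 1.54 CPM (-0.88 ± 0.13). Mrps6, whose exon overlaps that of the inositol transporter gene Slc5a3 on the same strand, changed by -0.59 ± 0.21, and Slc5a3 by -0.93 ± 0.17, so their reads may not be fully separable. In the GENCODE M21 annotation 23 members share exon sequence with another protein-coding gene, 20 of them on the opposite strand, and it is not known here whether strand was used in counting.

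The Pkd1 controls were spread. Against the mean of the 3 Pkd1 controls, the median member lay at 0.02 in control 1, 0.28 in control 2 and -0.30 in control 3, and at -0.53, -0.38 and -0.39 in knockouts 1 to 3, on the log2 CPM scale. Control 3 was the lowest Pkd1 control for 74 of the 78 members, among them all 47 that fell, and for 33.8% of all genes. Control 3 had the lowest proximal tubule sum of the controls (11398 CPM, with 17028 and 19002 in controls 1 and 2) and the highest macrophage sum (263 CPM, with 101 and 128). Without Pkd1 control 3, 60 members fell, and 20.7% of all genes. Without Pkd1 control 2, 28 members and 18.4% of all genes fell, and without Pkd1 knockout 1, 30 members and 18.1%. As a share of all deposited TPM, the 78 members made up 1.01%, 1.04% and 0.933% in Pkd1 controls and 0.794%, 0.812% and 0.862% in knockouts, so the summed levels did not overlap either.

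**Figure D4:**
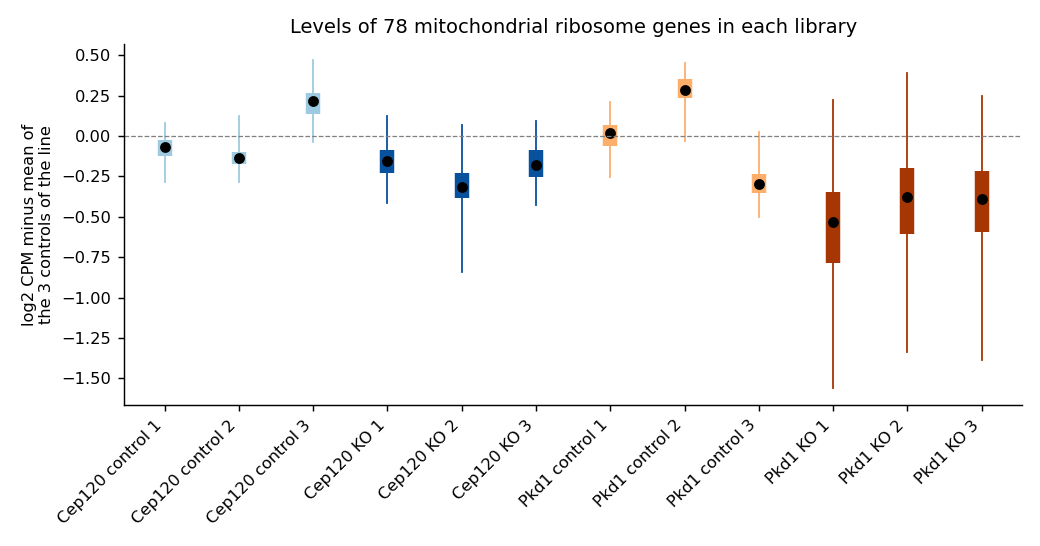
Spread of the 78 members in each of the 12 libraries, as log2 CPM minus the mean of the 3 controls of the line (y axis); black points are medians, thick bars the middle 50% of members and thin lines the full range. Pkd1 control 3 lies at -0.30 and the Pkd1 knockouts at -0.53 to -0.38, while the Cep120 knockouts lie at -0.31 to -0.16.

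Scaling and covariates changed some calls. On log2 of the deposited TPM plus 1 (limma), 30 members fell and 4 rose, namely Mrpl9, Mrps9, Mrpl33 and Mrpl43, and 62 members were below 0. Of all genes on that scale, 13.5% fell, 28.3% rose and 42.2% were below 0. There the median of all genes moved from -0.04 to 0.11, and that of the members to -0.20. With Xist presence as a term, only Mrpl42 and Mrpl12 passed, both lower, at a member median of -0.41. Of all genes in that fit 5.08% fell, and 10.1% passed in either direction. In that fit the effect of Xist comes from the Cep120 knockouts, of which 1 has Xist. With the same term 5 respiratory chain genes, 11 proximal tubule genes and 5 translation factors fell, 10 cytosolic ribosome genes rose, and no macrophage gene passed.

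Markers of kidney cell types moved strongly in the same Pkd1 knockouts. All 12 proximal tubule genes fell (median -2.74), from a sum of 11398 to 19002 CPM in Pkd1 controls to 2705 to 4384 in knockouts, among them Slc22a8, an organic anion transporter (-2.96), and Cubn, an endocytic receptor (-2.76). All 5 genes of the loop of Henle and distal tubule fell, such as Slc12a3, the thiazide-sensitive cotransporter (-2.43). All 7 macrophage genes rose (median 2.58, sums of 101 to 263 CPM in controls and 675 to 976 in knockouts), as did all 6 genes of stroma and myofibroblasts (median 1.60, sums of 1551 to 2767 and 5441 to 8973 CPM), while all 4 genes of dividing cells fell (median -1.98). Of 6 collecting duct genes 4 rose and 2 fell. Of 5 fat genes only Ucp1 fell, and their sum was 0.354 CPM in Pkd1 knockout 2 against 218 and 544 in the other two. The part of cell makeup in the members' change was not tested.

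Genes that work with the mitoribosome were set beside it. Of 5 tested mitoribosome proteins with other names, 3 fell and 0 rose (median -0.53). Ptcd3 was at 69.3, 62.6 and 52.3 CPM in Pkd1 controls and 28.1, 28.8 and 31.3 in knockouts (-1.06 ± 0.13). Dap3 (-0.53 ± 0.12) and Chchd1 (-0.63 ± 0.18) fell too, while Aurkaip1 (-0.35 ± 0.15) and Gadd45gip1 (0.02 ± 0.32) did not pass. All 5 encode mitoribosome subunits.

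Of 15 mitochondrial translation factors 8 fell and 0 rose (median -0.55). They included Lrpprc, which stabilises mitochondrial mRNAs (-1.47 ± 0.15), Gfm2, which acts in ribosome recycling (-0.86 ± 0.11), Taco1, an activator of Cox1 translation (-1.14 ± 0.16), and Gfm1, an elongation factor (-0.90 ± 0.13). Of 25 assembly factors 8 fell and 1 rose (median -0.11): Fastkd2, which acts on the large ribosomal RNA, changed by -1.02 ± 0.15, the ribosomal RNA methyltransferases Tfb1m and Mettl15 by -0.89 ± 0.18 and -1.04 ± 0.21, and the GTPase Mtg2 by -0.65 ± 0.15. The 1 that rose was Ddx28, an RNA helicase (0.38 ± 0.14, adjusted p = 0.045, edgeR), a call that held in 8 of 25 alternatives and was lost with RLE or upper quartile scaling and DESeq2. Of 17 mitochondrial aminoacyl-tRNA synthetases 7 fell (median -0.17), led by Nars2 (-0.99 ± 0.14), and of 13 genes of mitochondrial transcription and RNA processing 5 fell (median -0.23), among them the helicase Supv3l1 (-0.73 ± 0.18) and the transcription factor Tfam (-0.59 ± 0.13). None of these last 2 lists rose.

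The 82 tested nuclear genes of the respiratory chain had a median of -1.14, and 78 fell and 1 rose. Atp5g1, of the membrane ring of ATP synthase, went from 793 to 208 CPM on average (-1.93 ± 0.22) and Ndufs1, of complex I, from 313 to 112 (-1.49 ± 0.19). Of 13 genes of import and matrix housekeeping 9 fell (median -0.47), led by the chaperonin pair Hspe1 (-1.53 ± 0.22) and Hspd1 (-1.42 ± 0.21). The cytosolic ribosome differed in sign: of 80 genes 61 rose and 0 fell (median 0.56), for example Rplp0 of its stalk (0.92 ± 0.14), and the median stayed above 0 under every scaling tried, between 0.47 and 0.79. These are counts and medians of lists of unequal level, and no test set one list against another.

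**Figure D5:**
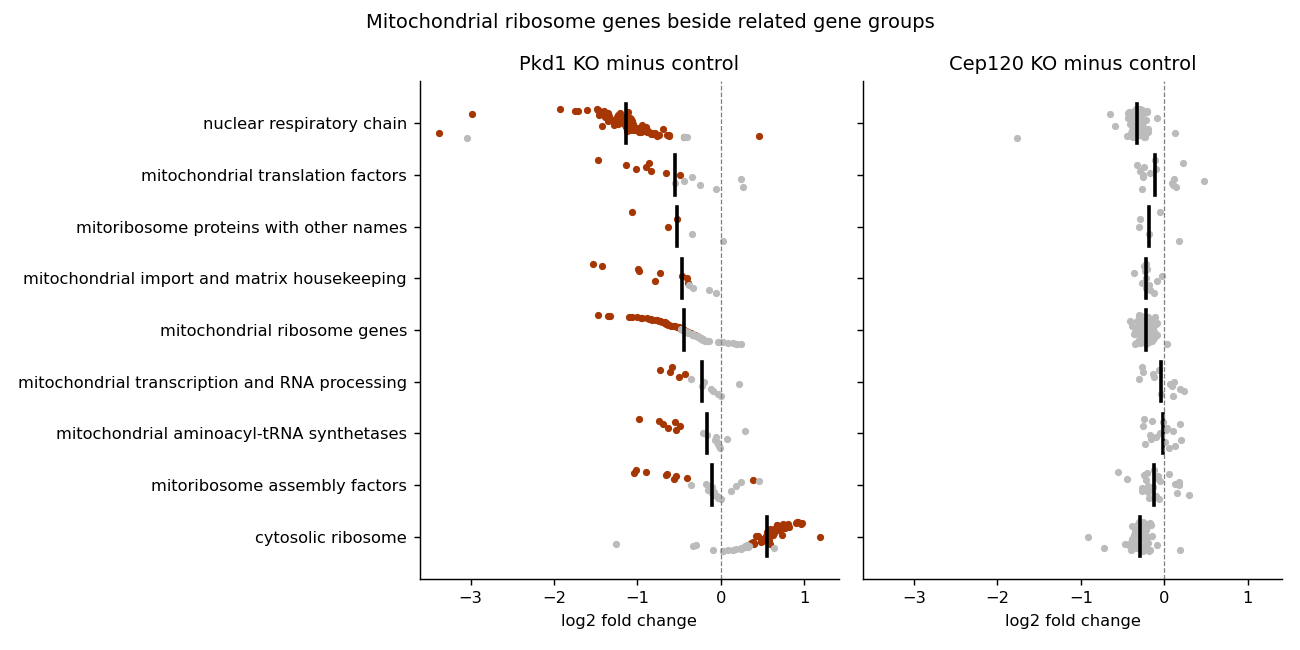
Log2 fold change (x axis) of the genes of 9 groups in Pkd1 (left) and Cep120 (right) knockouts against their own controls; each point is a gene, dark where the adjusted p was below 0.05, and black lines are medians. In the left panel medians run from -1.14 for the respiratory chain through -0.45 for the mitochondrial ribosome to 0.56 for the cytosolic ribosome, and in the right panel no gene passed the test.

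Of 9 regulators of nuclear mitochondrial genes, 5 fell and 2 rose in Pkd1 knockouts. Ppargc1a, the coactivator PGC-1 alpha, was at 158, 135 and 112 CPM in Pkd1 controls and 44.96, 53.9 and 42.7 in knockouts (-1.51 ± 0.18, adjusted p = 3.4e-05, edgeR). Its relative Ppargc1b (-1.39 ± 0.19) and the nuclear receptor Esrra (-1.72 ± 0.22) fell as well. The subunits of GABP, Gabpa (-0.44 ± 0.13) and Gabpb1 (-0.56 ± 0.19), fell less. Myc, a growth-promoting factor, rose from 13.03, 13.7 and 19.99 CPM to 46.0, 42.1 and 66.5 (1.73 ± 0.24), and Nrf1 rose by 0.51 ± 0.14. Yy1 (-0.02 ± 0.13) and Pprc1 (0.34 ± 0.24) did not pass.

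In Cep120 knockouts no member passed the test, nor did any gene (0% of those tested). With DESeq2 and with limma voom the number of members called was also 0. At an unadjusted p below 0.05 there were 5 members (Mrps28, Mrpl35, Mrpl2, Mrpl43 and Mrpl9), 6.41%, against 6.04% of all genes. The values leaned one way all the same: 77 of 78 members were below 0, against 48.4% of all genes, with a median of -0.22 against 0.01 and a narrow range of -0.42 to 0.04. Mrpl33 was the 1 member above 0. Mrps28 was at 69.8, 64.2 and 80.6 CPM in Cep120 controls and 55.6, 46.0 and 59.3 in knockouts (-0.42 ± 0.17, adjusted p = 0.76, edgeR), and Mrpl35 at 98.5, 95.3 and 102 in controls and 78.9, 75.4 and 81.6 in knockouts (-0.32 ± 0.14). In both genes all knockouts lay below all controls, as in 23 of the 78 members and 7.88% of all genes. On log2 TPM plus 1 the member median was -0.032, against 0.12 for all genes, with 50 of 78 below 0.

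Cep120 control 3 was the highest Cep120 control for 69 of 78 members, and 40.3% of all genes. The median member lay at 0.21 in that library and at -0.07 and -0.14 in controls 1 and 2, with -0.16, -0.31 and -0.18 in the knockouts, against the mean of the 3 controls. Cep120 knockouts 1 and 2 had 1.31 and 0.684 CPM over the 5 fat genes, where Cep120 knockout 3 and the controls had 232 to 398. The respiratory chain (median -0.33) and the cytosolic ribosome (median -0.30) also lay below 0 in this comparison, with 0 genes called in either. All 6 genes of stroma and myofibroblasts lay above 0 (median 0.56, 0 called, 4 at an unadjusted p below 0.05, edgeR). Their sums were 1248 to 1763 CPM in Cep120 controls and 1667, 3088 and 1754 in knockouts 1 to 3, and knockout 2 was the lowest Cep120 knockout for 62 of the 78 members, and 32.4% of all genes. The part of these genes in the members' values was not tested.

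The difference between the Pkd1 and Cep120 effects was tested directly, as an interaction over all 12 libraries, the same libraries that gave both effects. It passed for 8 members, 10.3%, against 28.1% of all genes: 7 were negative (14.2% of all genes) and 1 positive (13.9%). For Mrpl42 (-1.17 ± 0.27, adjusted p = 0.0075), Mrps36 (-1.07 ± 0.27), Mrpl12 (-1.02 ± 0.30), Mrpl50 (-0.95 ± 0.20), Mrps21 (-0.91 ± 0.25), Mrps22 (-0.77 ± 0.26) and Mrps25 (-0.65 ± 0.18) the effect was more negative in Pkd1 knockouts. Mrpl9, a large-subunit protein of bacterial ancestry, differed the other way (0.53 ± 0.19, adjusted p = 0.049, edgeR): it was at 65.8, 64.3 and 69.7 CPM in Cep120 controls, 56.6, 45.3 and 54.7 in Cep120 knockouts, 61.2, 74.1 and 52.0 in Pkd1 controls and 69.2, 75.2 and 67.9 in Pkd1 knockouts. Exons of Mrpl9 overlap those of Oaz3 on the opposite strand, and those of Mrps25 overlap Nr2c2. The median difference over members was -0.24, against -0.06 over all genes, and -0.48 against -0.01 both without replicate 3 of both control groups and with a term for whether a library had more or fewer than 28000 genes with a count. For the other 70 members the difference was not past the threshold, which does not show that the effects were equal. Without replicate 3 of both control groups 32 members and 29.8% of all genes passed. Without Cep120 control 1, 3 members and 21.5% of all genes passed, and without Cep120 control 2, 3 members and 21.1%.

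The controls of the 2 lines gave no call among the members or among all genes (0%, edgeR), with 0 members and 4.19% of all genes at an unadjusted p below 0.05, and 0 members by DESeq2 or limma voom. The median of Pkd1 control minus Cep120 control was 0.04. Without replicate 3 of both control groups it was 0.30, and 1 member, Mrpl34, was higher in Pkd1 controls.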

How the data were processed

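Per the labels' protocols, kidneys were ground in liquid nitrogen, RNA was purified from Trizol lysates, and a SMARTer Ultra Low kit gave double-stranded cDNA. The tools in the submitters' processing notes are STAR 2.5.1a, featureCounts 1.4.6-p5, Salmon 0.8.2 and build mm9, with no roles. The authors deposited estimated counts per gene and per transcript, TPM, and moderated log2 CPM with a prior count that no source here gives. After dropping 287 repeated lines, estimated counts were rounded and 19890 genes were kept by filterByExpr. Libraries of 23070736 to 31837973 counts were scaled by TMM and fitted together in R 4.3.3 with edgeR 4.0.16 (quasi-likelihood, 4 groups of 3, threshold 0.05). Depth limits cover counting error only. Alternatives used limma 3.58.1, DESeq2 1.42.0, other scalings, filters, terms and left-out libraries. The edgeR step was checked on simulated counts with known changes.

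Members and lists were chosen with earlier results of these data known. Named members were, per comparison, the 8 largest rises and falls among those past the threshold without overlap (with under 3 calls, the 4 smallest p), the 5 highest and 5 lowest by TPM, the Mrps18 paralogs, Mrps6, Mrps30 and Mrps36; others were chosen after their values were seen. From each list up to 4 genes with the smallest p in the Pkd1 comparison were open to naming, with all regulators and all mitoribosome proteins with other names. Lists of podocyte and endothelial genes gave 2 of 4 and 3 of 4 lower, and 1 of 2 muscle genes rose. Promoters are RefSeq windows on GRCm38.p6, and no other coordinates are given because that build differs from the notes. CPM values are TMM-scaled, given as mean and SD, and each SE was computed from a fold change and its F statistic.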

Additional observations from a re-analysis of the deposited data

Results flagged for a closer look

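The effects of the 2 knockouts differed, by the interaction test over 12 libraries, for 8 of 78 members at an adjusted p below 0.05 (edgeR). That share is below the 28.1% of all genes that passed. The difference was negative for 7 members (8.97%, against 14.2% of all genes) and positive for 1 (13.9% of all genes). The difference of log2 fold changes, Pkd1 minus Cep120, was -1.17 for Mrpl42, -1.07 for Mrps36, -1.02 for Mrpl12, -0.95 for Mrpl50, -0.91 for Mrps21, -0.77 for Mrps22, -0.65 for Mrps25 and 0.53 for Mrpl9. Mrpl42, Mrps36 and Mrpl50 kept this call in all 24 alternatives that gave a value at that threshold, and Mrpl9 in 5 and Mrps22 in 11 of them. At an adjusted p of 0.01 only Mrpl42 and Mrpl50 passed, and 13.8% of all genes.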

How the results depend on the processing

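In the Pkd1 comparison the 47 member calls, all falls, became 2 with Xist as a term, where 5.08% of all genes fell. At an adjusted p of 0.01 there were 26, where 14.5% of all genes fell. Leaving out 1 library gave 28 to 60, where 17.9% to 22.7% of all genes fell. The members' median was -0.20 on log2 TPM plus 1. On the deposited log2 CPM 41 members fell and 2, Mrpl9 and Mrps9, rose. Of all genes on that scale, 19.2% fell and 24.8% rose. Of the 47 called members, Mrpl42 and Mrpl12 kept the call in all 25 alternatives with the threshold of 0.05. No named member changed sign between fits where it was past the threshold in either. Of the 26 named members, 2 in the Pkd1 comparison (Mrps18b and Mrps30), 3 in the difference and 9 in the Cep120 comparison changed sign in some alternative without passing the threshold there or in the main fit. Over named members and alternatives, 581 outcomes for the Pkd1 comparison kept their side of the threshold, 59 became weaker and 10 stronger. In the Cep120 comparison no alternative gave a member call, and the members' median was -0.032 on log2 TPM plus 1.

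For the difference, the main fit called 8 members and 28.1% of all genes. Upper quartile scaling called 20 members (28.4% of all genes), DESeq2 14 (32.3%) and a filter of 5 CPM 22 (37.3%). Deposited log2 CPM gave 23 (26.2%) and log2 TPM plus 1 gave 18 (24.2%). A term for more or fewer than 28000 genes with a count gave 33 (31.1%). Without replicate 3 of both control groups 32 passed (29.8%), and at an adjusted p of 0.01 there were 2 (13.8%). Leaving out 1 library gave 3 to 28 members, and 20.5% to 28% of all genes. The median difference was -0.48 with that term and -0.48 without both replicates 3. Between the controls, leaving out both replicates 3 gave 1 member call, with 1.8% of all genes called, and a member median of 0.30. The cause of these shifts was not tested.

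Deviations of same-numbered libraries correlated at 0.18, -0.05 and 0.15 in the Cep120 line and -0.10, -0.04 and -0.14 in the Pkd1 line. For libraries of unlike number the values ran from -0.20 to 0.11 in the Cep120 line and from -0.05 to 0.13 in the Pkd1 line. Deviations within a group of 3 sum to 0, so these values do not settle whether the numbers pair the samples. The main fit used no pairing. With the replicate block 35 members fell in the Pkd1 comparison, and 19.4% of all genes. The difference gave 5 member calls, against 21.9% of all genes. With 3 libraries a group and counts of 125 or more, spread between libraries rather than depth limits these members.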
